A study of Mus musculus with 6 samples.

Results

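Genes of vascular smooth muscle cells and pericytes, the mural cells that wrap blood vessels, were examined in brown adipose tissue (BAT) of 3 sST2-KO mice and 3 WT littermates by RNA-seq. The group holds 10 genes of the 35976 gene rows in the count table, and was chosen by symbol: Acta2, Tagln, Myh11, Cnn1, Mylk, Pdgfrb, Rgs5, Notch3, Cspg4 and Kcnj8. The sST2-KO mice were homozygous for a germline CRISPR/Cas9 deletion of intronic sequence of Il1rl1 that carries the stop codon of the soluble isoform sST2, and they came from crosses of heterozygotes on the C57BL/6J background, as did the WT mice. All 6 mice were 10-week-old males with surgically denervated BAT that had been exposed to 10 °C for 8 h, so no mouse with intact BAT nerves and none kept warm was measured here. Bulk tissue was sequenced, so fewer mural cells and less RNA per mural cell cannot be told apart. The labels give 3 samples a group and say no more of how they were taken, so the p-values measure the spread between these samples, which may in part be technical.

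Mural cells give vessels their tone and their structure. Smooth muscle cells of arteries and arterioles contract through smooth muscle actin and myosin, and their contractile genes are driven by serum response factor (SRF) with its cofactor myocardin, which bind CArG boxes. Pericytes lie on capillaries and are recruited by PDGF-B from endothelial cells acting on the receptor PDGFRβ. Notch3 receives Jagged signals from the endothelium and maintains the smooth muscle state. In BAT, these cells regulate the blood flow that supplies fuel and oxygen and carries heat away.

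The counts of a library summed to between 8159442 and 12874809. Of the 35976 rows, 14542 passed the filter on low counts and entered edgeR's quasi-likelihood test, with p-values adjusted by Benjamini and Hochberg's method. Genes were called where the adjusted p was under 0.05 and the level changed more than 2-fold, which held for 1315 genes higher and 1033 genes lower in sST2-KO (9.04% and 7.10% of the genes tested). These shares are the background for the counts of called genes in each list. The median log2 fold change over all genes tested was 0.034, and all fold changes are given as sST2-KO over WT. Values listed for a group are in the order of replicates 1, 2 and 3. Libraries differed beyond the groups. WT replicate 2 held 33870 counts of Alb, a liver gene, against 11 to 254 in the other libraries. Skeletal muscle markers were high in all sST2-KO libraries and in WT replicate 1, and macrophage markers were highest in sST2-KO replicate 3. Il1rl1, the targeted gene, held 19, 19 and 6 counts in WT and 55, 69 and 142 counts in sST2-KO (log2 fold change 2.56, adjusted p = 0.0239). Counts per gene add up sST2 and the membrane-bound ST2L, and the deletion removed intronic sequence, so these values do not check the genotype.

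None of the 10 mural genes was called higher or lower in sST2-KO, and 0 of 10 reached an adjusted p under 0.05 by edgeR's quasi-likelihood test, which 19.6% of all genes tested did. An unadjusted p under 0.05 by the same test was found for 5 of 10, beside 36.2% of all genes tested. With total counts as scale it was found for 1 of 10, beside 5551 of 14542 genes tested. It was found for 7 of 10 with the replicate number as a block (4623 of 14542 genes) and without sST2-KO replicate 2 (4900 of 14977 genes). Over all alternatives the number ranged from 1 to 7 of 10. All 10 passed the filter on low counts, and all had at least 7 counts in every library. The log2 fold change was below 0 in 9 of 10, beside 48.0% of all genes tested, and in 7 of 10 with total counts as scale, under which the median of all genes tested was 0.29. The median of the 10 genes was -0.62, beside 0.034 for all genes tested, and it ranged from -0.91 to -0.36 over the alternatives. In 4 genes (Myh11, Cnn1, Rgs5 and Kcnj8) all 3 sST2-KO libraries lay below all 3 WT libraries, a pattern that 19.7% of all genes tested showed. In 0 of 10 the sST2-KO libraries all lay above WT, which 21.8% of all genes tested showed. DESeq2 gave 1 of 10 called lower (Cnn1), beside 1318 of the 24599 genes it fitted. It gave 2 of 10 an adjusted p under 0.05 (Cnn1 and Rgs5), and the share over all genes was not computed. When sST2-KO replicate 2 was left out, edgeR called 3 of 10 lower (Acta2, Myh11 and Cnn1), beside 892 of 14977 genes tested. When any other library was left out, 0 of 10 were called.

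**Figure D1:**
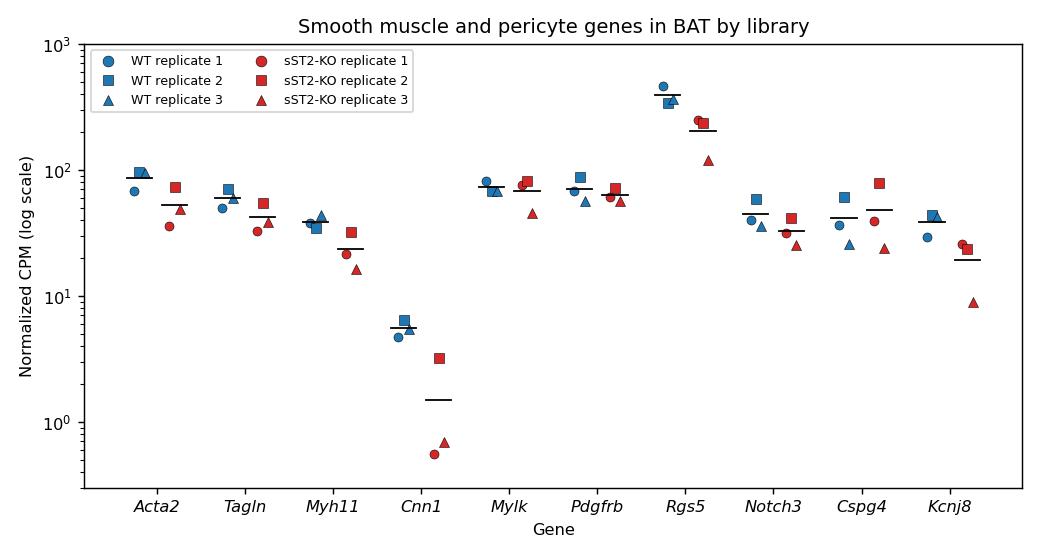
Normalized CPM (log axis) of the 10 smooth muscle and pericyte genes in each library, with blue for WT, red for sST2-KO, a symbol for each replicate and a bar for the group mean (n = 3). The sST2-KO libraries of Myh11, Cnn1, Rgs5 and Kcnj8 all sit below the WT libraries, while those of the other 6 genes overlap with WT.

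The promoters of genes that lay apart between the groups were read to show which of them carry the letters of a CArG box, the site of SRF. RefSeq promoters (GRCm38.p6) were read for 7 of the 10 genes. No window was read for Tagln, Myh11 and Pdgfrb, so the motif counts of the members leave these genes out. The windows cover 250 bases before the start of the gene, read from 5′ to 3′ on the gene's strand, and capitals mark a CArG box in its strict form or with at most 1 G or C in the core. Cnn1, Rgs5 and Kcnj8 are shown because their groups did not overlap, Acta2 because it is the only one of the 7 with a match, and Cnn2 and Myl9 because these relatives of Cnn1 and of the contractile genes were called in opposite directions.
Acta2 (chr19:34255374-34255623, minus strand): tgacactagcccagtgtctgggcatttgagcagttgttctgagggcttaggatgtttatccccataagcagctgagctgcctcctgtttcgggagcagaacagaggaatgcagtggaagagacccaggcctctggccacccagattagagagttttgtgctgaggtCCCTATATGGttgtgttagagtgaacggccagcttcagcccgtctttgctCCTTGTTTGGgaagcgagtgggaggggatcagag
Cnn1 (chr9:22099003-22099252, plus strand): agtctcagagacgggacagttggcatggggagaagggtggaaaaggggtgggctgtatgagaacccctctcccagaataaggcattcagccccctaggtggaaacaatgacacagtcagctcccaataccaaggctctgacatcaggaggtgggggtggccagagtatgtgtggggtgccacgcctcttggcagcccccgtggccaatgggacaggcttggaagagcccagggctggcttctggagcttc
Rgs5 (chr1:169655251-169655500, plus strand): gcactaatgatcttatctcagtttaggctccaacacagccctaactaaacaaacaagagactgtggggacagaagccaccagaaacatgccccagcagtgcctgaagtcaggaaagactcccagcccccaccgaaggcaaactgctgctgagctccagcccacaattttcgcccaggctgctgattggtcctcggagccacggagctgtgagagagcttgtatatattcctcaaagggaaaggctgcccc
Kcnj8 (chr6:142571615-142571864, minus strand): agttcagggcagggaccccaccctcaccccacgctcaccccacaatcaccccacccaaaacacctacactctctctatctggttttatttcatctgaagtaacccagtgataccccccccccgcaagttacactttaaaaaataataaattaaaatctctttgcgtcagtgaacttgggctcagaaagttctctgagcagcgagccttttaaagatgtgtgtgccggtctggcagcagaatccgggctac
Cnn2 (chr10:79988350-79988599, plus strand): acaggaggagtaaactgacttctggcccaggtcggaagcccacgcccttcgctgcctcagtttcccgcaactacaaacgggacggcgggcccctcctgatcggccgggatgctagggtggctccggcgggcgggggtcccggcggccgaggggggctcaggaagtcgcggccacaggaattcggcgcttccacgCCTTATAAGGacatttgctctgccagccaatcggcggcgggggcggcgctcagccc
Myl9 (chr2:156775214-156775463, plus strand): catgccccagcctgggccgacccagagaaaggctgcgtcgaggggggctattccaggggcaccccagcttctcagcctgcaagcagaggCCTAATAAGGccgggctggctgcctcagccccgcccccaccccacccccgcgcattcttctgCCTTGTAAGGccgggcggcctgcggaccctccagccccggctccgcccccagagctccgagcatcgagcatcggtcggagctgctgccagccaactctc

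In the window of Acta2, relaxed matches started 84 and 34 bases before the start of the gene. A strict CArG box was found in 0 of the 7 windows, beside 1.47% of all 32851 promoter windows of this length, and the relaxed form in 1 of 7, beside 8.59%. Cnn2 held a strict match that started 56 bases before its start. Myl9 held a strict match at 161 bases and a relaxed match at 99 bases. The letters GTGGGAA, a motif of RBPJ, the DNA-binding partner of Notch receptors, were searched on both strands and found in 0 of the 7 windows, beside 5.42% of all windows. A match is a description of the letters in this window and not evidence of binding.

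Per length, Rgs5 was the most abundant of the 10 genes. With CPM divided by the exon length in kb, it averaged 63.5 in WT and 32.9 in sST2-KO. Tagln (29.5 and 20.5) and Acta2 (26.9 and 16.4) followed, and their libraries overlapped in each group. Kcnj8 averaged 10.2 per kb in WT, Pdgfrb 8.72, Mylk 6.48, Myh11 5.09, Notch3 4.97, Cspg4 3.44 and Cnn1 2.02. In WT the ranges of Kcnj8 and Pdgfrb overlapped, as did those of Pdgfrb and Mylk, of Myh11 and Notch3, of Notch3 and Cspg4 and of Cspg4 and Cnn1. In sST2-KO, Cnn1 was again the lowest at 0.542 per kb, and Pdgfrb (7.81) and Mylk (6.05) averaged above Kcnj8 (5.16). The libraries of Mylk overlapped with those of Pdgfrb and of Kcnj8, and Pdgfrb lay above Kcnj8 in every library.

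Among the contractile genes, the group means were lower in sST2-KO for Acta2, Tagln, Myh11 and Cnn1, and near each other for Mylk. Acta2 (GRCm39 chr19:34217737-34232990, minus strand) encodes α-smooth muscle actin, the main actin of the contractile filament. Its normalized CPM was 68.5, 96.8 and 94.9 in WT and 36.1, 73.6 and 48.8 in sST2-KO. Only sST2-KO replicate 2 reached the WT range, above WT replicate 1. The log2 fold change was -0.72 (SE 0.29, 95% interval -1.39 to -0.046, adjusted p = 0.118 by edgeR's quasi-likelihood test), and without sST2-KO replicate 2 it was -1.05 (adjusted p = 0.0480).

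Tagln (chr9:45840909-45847404, minus strand) encodes transgelin, an actin-binding protein of smooth muscle. It was measured at 49.6, 71.0 and 60.2 in WT and 32.6, 54.5 and 38.9 in sST2-KO (normalized CPM). The libraries had the same order within each group as for Acta2, with sST2-KO replicate 2 again inside the WT range. This gave a log2 fold change of -0.52 (SE 0.24, interval -1.08 to 0.040, adjusted p = 0.163 by edgeR's quasi-likelihood test).

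Myh11 (chr16:14012399-14109236, minus strand) encodes smooth muscle myosin heavy chain, the motor protein of these cells. The WT libraries held 37.6, 34.9 and 43.6 CPM and the sST2-KO libraries 21.6, 32.4 and 16.5. All sST2-KO libraries were below WT, with a gap between 32.4 in sST2-KO replicate 2 and 34.9 in WT replicate 2. For Myh11 the log2 fold change was -0.72 (SE 0.26, interval -1.34 to -0.10, adjusted p = 0.0934 by edgeR's quasi-likelihood test), and without sST2-KO replicate 2 it was -1.04 (adjusted p = 0.0378).

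Cnn1 (chr9:22010512-22020926, plus strand) encodes calponin of smooth muscle, which binds actin and restrains the myosin motor. It was the rarest of the 10 genes, with 51, 68 and 44 counts in WT and 8, 27 and 7 counts in sST2-KO. Its normalized CPM was 4.76, 6.41 and 5.42 in WT and 0.558, 3.20 and 0.691 in sST2-KO. The sST2-KO libraries were all below WT and were themselves spread, with replicate 2 well above the other two. The WT mean of 5.53 ± 0.83 (SD, n = 3) was 3.86 times that of sST2-KO by the fitted fold change (log2 fold change -1.95, SE 0.65, interval -3.45 to -0.45, adjusted p = 0.0711 by edgeR's quasi-likelihood test). Of all genes tested, 2.45% had a log2 fold change as low or lower, and without sST2-KO replicate 2 the value was -3.16 (adjusted p = 0.0201).

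Mylk (chr16:34565580-34822790, plus strand) encodes myosin light chain kinase, which starts contraction by phosphorylating the regulatory light chain. Levels were 81.8, 68.6 and 68.7 CPM in WT and 76.2, 82.1 and 45.9 in sST2-KO. The groups overlapped, and only sST2-KO replicate 3 lay below WT. With these libraries the log2 fold change was -0.10 (SE 0.24, interval -0.67 to 0.47, adjusted p = 0.797 by edgeR's quasi-likelihood test), and it was 0.14 when libraries were scaled by total counts alone.

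Among the pericyte genes, Rgs5 and Kcnj8 lay below WT in every sST2-KO library, while the receptors Pdgfrb and Notch3 and the proteoglycan Cspg4 overlapped. Rgs5 (chr1:169483036-169524887, plus strand) encodes a regulator of G protein signaling that is among the most used pericyte markers. The WT libraries held 465, 340 and 367 CPM and the sST2-KO libraries 251, 237 and 119. All sST2-KO libraries were below WT, with replicate 3 the lowest. For Rgs5 the log2 fold change was -0.95 (SE 0.32, interval -1.69 to -0.20), with an adjusted p of 0.0741 by edgeR's quasi-likelihood test and 0.0187 by DESeq2.

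Kcnj8 (chr6:142510563-142517830, minus strand) encodes the pore of the vascular ATP-sensitive potassium channel, which links the metabolic state of mural cells to their relaxation. Normalized CPM of Kcnj8 were 29.6, 43.6 and 42.3 in WT and 25.7, 23.6 and 8.99 in sST2-KO. The sST2-KO libraries were all below WT, replicate 3 by the widest gap. This gave a log2 fold change of -0.98 (SE 0.38, interval -1.88 to -0.089, adjusted p = 0.110 by edgeR's quasi-likelihood test), and -0.65 without sST2-KO replicate 3. Abcc9, which encodes the sulfonylurea receptor subunit of the same channel, had 65.4, 46.7 and 50.3 in WT and 50.8, 48.9 and 52.2 in sST2-KO (log2 fold change -0.097, SE 0.18, adjusted p = 0.737), so its groups overlapped. With total counts as scale, the log2 fold change of Abcc9 was 0.16.

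Pdgfrb (chr18:61178212-61218133, plus strand) encodes the receptor through which PDGF-B recruits pericytes. Levels were 67.7, 87.5 and 56.6 CPM in WT and 61.5, 71.4 and 56.9 in sST2-KO. All sST2-KO libraries lay inside the WT range. For Pdgfrb the log2 fold change was -0.16 (SE 0.21, interval -0.65 to 0.33, adjusted p = 0.624 by edgeR's quasi-likelihood test), and 0.088 with total counts as scale.

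Notch3 (chr17:32339794-32385893, minus strand) encodes the Notch receptor of mural cells. Its normalized CPM was 39.8, 58.8 and 35.8 in WT and 31.6, 41.7 and 25.2 in sST2-KO. Of the sST2-KO libraries, replicate 2 lay inside the WT range and the others below it. The log2 fold change was -0.45 (SE 0.27, interval -1.07 to 0.17, adjusted p = 0.263 by edgeR's quasi-likelihood test).

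Cspg4 (chr9:56772317-56807187, plus strand) encodes the NG2 proteoglycan on the surface of pericytes and of some progenitors. Its normalized CPM was 36.7, 60.9 and 26.0 in WT and 39.7, 79.3 and 24.2 in sST2-KO. It was the only one of the 10 genes with a higher mean in sST2-KO, and its spread within each group was wider than the distance between the means. For Cspg4 the log2 fold change was 0.21 (SE 0.47, interval -0.88 to 1.30, adjusted p = 0.780 by edgeR's quasi-likelihood test), and it was -0.39 without sST2-KO replicate 2 and -0.039 without WT replicate 3.

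The 10 genes did not order the libraries alike. Within sST2-KO, replicate 2 was the highest in 8 of 10 genes, all but Rgs5 and Kcnj8, and replicate 3 was the lowest in 7 of 10, all but Acta2, Tagln and Cnn1. Within WT, replicate 2 was the highest in 7 of 10. Of the 10 genes, 7 lay below the lowest WT library in sST2-KO replicate 1, 4 in replicate 2 and 9 in replicate 3. The matching shares over all genes tested were not computed for these orders and counts, so they only describe the 10 genes. The normalized CPM of the 10 genes summed to 881, 868 and 800.1 in WT and to 577, 698 and 385 in sST2-KO. Rgs5 alone made up 31.0% to 52.8% of these sums. Without Rgs5 the sums were 416, 528 and 433 in WT and 326, 462 and 266 in sST2-KO, which overlapped. The 95% intervals of the members' fold changes show what 3 mice against 3 could resolve. That of Mylk excludes a change of 2-fold in either direction, as does that of Pdgfrb. That of Cspg4 does not exclude a level 2-fold higher in sST2-KO. The intervals of Acta2, Tagln, Myh11, Cnn1, Rgs5, Notch3 and Kcnj8 do not exclude a level 2-fold lower in sST2-KO.

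Some of these genes overlap others on the opposite strand, and the strand setting of the counting is not given in the sources used here. Cnn1 overlaps Elof1, a transcription elongation factor gene, which was itself lower in all sST2-KO libraries (log2 fold change -0.92, adjusted p = 0.0165 by edgeR's quasi-likelihood test). Acta2 overlaps Stambpl1, whose log2 fold change was 0.95 (adjusted p = 0.0601), and Tagln overlaps Pcsk7, whose log2 fold change was -0.45 (adjusted p = 0.140). Mylk and Notch3 overlap opposite-strand genes as well, and Myh11, Pdgfrb, Rgs5, Cspg4 and Kcnj8 overlap none in the GRCm39 annotation. The part of these overlaps in the members' counts was not tested.

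The list of relatives holds genes of the same families as the 10 genes, and the channel subunits Abcc8 and Abcc9. It leaned the other way, with a log2 fold change above 0 in 19 of the 27 tested, beside 7567 of all 14542 genes tested. Of 30 listed, 4 (Actb, Cnn2, Rgs16 and Rgs1) were called higher and 0 lower, beside 9.04% and 7.10% of all genes tested. The median over the list was 0.76 on the log2 scale, beside 0.034 for all genes. Actb, the cytoplasmic actin of most cells, rose 2.28-fold, from 1102, 1670 and 1331 in WT to 2184, 3174 and 3980 in sST2-KO (log2 fold change 1.19, SE 0.34, adjusted p = 0.0472 by edgeR's quasi-likelihood test). Cnn2, the calponin of non-muscle cells, rose 2.19-fold, from 25.6, 39.1 and 43.5 to 55.5, 96.9 and 85.0 (log2 fold change 1.13, SE 0.28, adjusted p = 0.0328). In both genes every sST2-KO library was above every WT library. Actb missed the threshold with RLE factors (adjusted p = 0.0520) and with no filter (adjusted p = 0.0547). Besides the members, 26 genes with an adjusted p under 0.05 are named here from the gene lists, Il1rl1 included. Of these, 16, 5 and 0 had an adjusted p under 0.05 without WT replicates 1, 2 and 3, and 19, 15 and 11 without sST2-KO replicates 1, 2 and 3. With RLE factors 23 of 26 did, and 25 of 26 with total counts or with no filter.

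Tagln2, the transgelin of leukocytes and many other cells, was higher by a log2 fold change of 0.99 (SE 0.28, adjusted p = 0.0468 by edgeR's quasi-likelihood test), just under 2-fold, and missed the threshold with RLE factors (adjusted p = 0.0508). Rgs16 and Rgs1, relatives of Rgs5 that are known from activated leukocytes, rose by log2 fold changes of 2.24 (SE 0.41, adjusted p = 0.0167) and 2.23 (SE 0.48, adjusted p = 0.0220). Rgs2 was -0.96 (adjusted p = 0.141) and Rgs4, another pericyte gene, -0.10 (adjusted p = 0.831), with overlapping groups in each. The non-muscle myosins Myh9 (0.27), Myh10 (-0.17) and Myh14 (-0.15), the calponin Cnn3 (0.35) and the cytoplasmic actin Actg1 (0.61) were not called. Neither were the enteric smooth muscle actin Actg2 (-1.20), the receptor kinases Pdgfra (0.27), Kit (0.76), Csf1r (1.06) and Flt3 (0.82), the Notch receptors Notch1 (0.10), Notch2 (1.20) and Notch4 (-0.54), and the channel subunits Kcnj11 (1.35) and Abcc8 (-0.78). Of these, Notch2 reached an adjusted p of 0.0498 without sST2-KO replicate 1, 0.0250 by DESeq2, 0.0458 with total counts and 0.0493 with no filter. The striated muscle relatives had wide errors, at 4.10 (SE 1.85) for Acta1, 2.24 (SE 0.71) for Actc1, 3.31 (SE 1.55) for Mylk2 and 1.18 (SE 0.39) for Mylk4, and none was called by edgeR, while DESeq2 gave Actc1 an adjusted p of 0.0203. Without WT replicate 1, Acta1 was at 9.42 (adjusted p = 0.0258) and Mylk2 at 12.6 (adjusted p = 0.0269). Tagln3, Mylk3 and Cspg5 did not pass the filter.

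**Figure D2:**
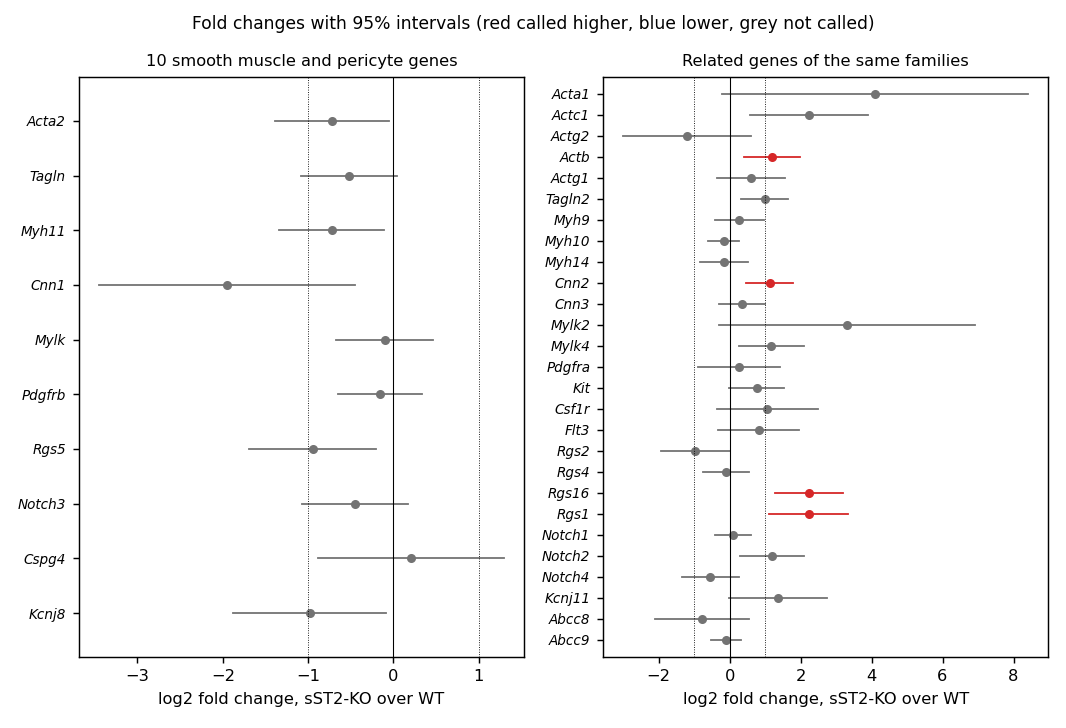
Log2 fold changes of sST2-KO over WT with 95% intervals for the 10 smooth muscle and pericyte genes (left) and for the 27 tested relatives (right), with red for genes called higher and grey for genes not called, and dotted lines at a 2-fold change. The left panel holds no colored gene, and the right panel holds 4 red ones (Actb, Cnn2, Rgs16 and Rgs1).

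Ratios of counts within a library set the mural genes other than Mylk and Cspg4 against a related gene, without any scaling between libraries. No ratio was made for Mylk and Cspg4. The pairs were chosen after the values were seen and are given without a test. How often pairs of other genes lie apart was not computed, so these ratios only describe the pairs. The ratio of Acta2 to Actb was 0.0621, 0.0579 and 0.0713 in WT and 0.0165, 0.0232 and 0.0123 in sST2-KO. The ratio of Cnn1 to Cnn2 was 0.186, 0.164 and 0.125 in WT and 0.0100, 0.0330 and 0.00813 in sST2-KO. In both pairs the groups lay apart. The denominators Actb and Cnn2 were themselves called higher in sST2-KO. Of the numerators, Cnn1 lay below WT in every sST2-KO library, while Acta2 overlapped between the groups.

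The groups lay apart in the same direction for Tagln to Tagln2 (0.486 to 0.855 in WT, 0.174 to 0.287 in sST2-KO), Myh11 to Myh9 (0.0750 to 0.115, 0.0334 to 0.0647), Rgs5 to Rgs4 (22.1 to 24.0, 10.5 to 15.7) and Notch3 to Notch1 (0.342 to 0.560, 0.294 to 0.329). They overlapped for Kcnj8 to Abcc9 (0.452 to 0.933, 0.172 to 0.506) and Pdgfrb to Pdgfra (1.12 to 3.18, 0.634 to 2.28). Within the mural genes, Rgs5 to Pdgfrb was 6.86, 3.88 and 6.48 in WT and 4.09, 3.31 and 2.10 in sST2-KO, and Acta2 to Pdgfrb was 1.01, 1.11 and 1.68 in WT and 0.587, 1.03 and 0.858 in sST2-KO. Both overlapped between the groups.

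**Figure D3:**
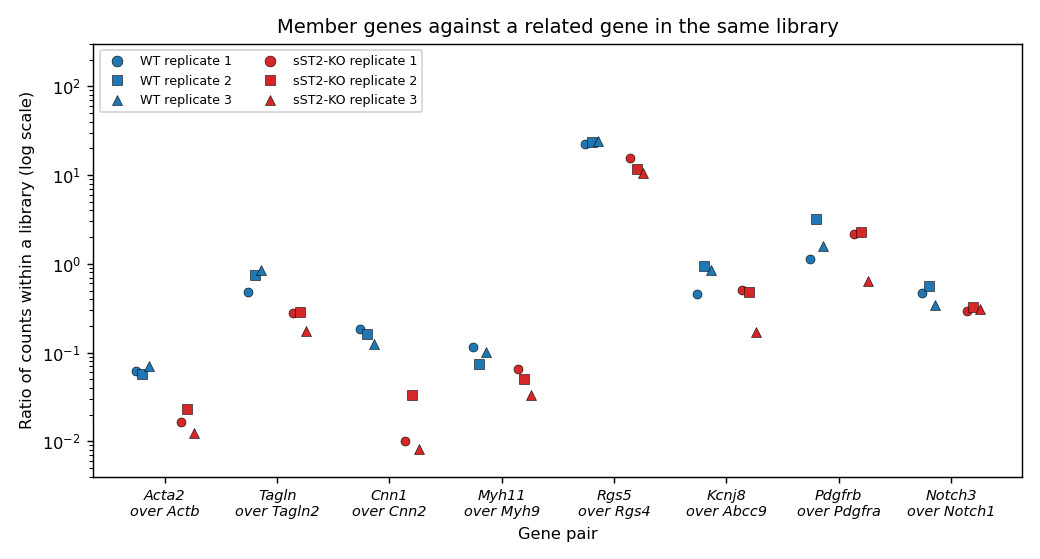
Ratio of counts of a member gene to a related gene within each library (log axis), with blue for WT, red for sST2-KO and a symbol for each replicate. For 6 of the 8 pairs all sST2-KO libraries lie below all WT libraries, and for Kcnj8 over Abcc9 and Pdgfrb over Pdgfra they overlap. The pairs were chosen after the values were seen, and the levels of Acta2, Tagln and Notch3 alone overlap between the groups. Mylk and Cspg4 have no pair.

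Other contractile genes of smooth muscle moved in both directions. Of 30 listed, 26 were tested, and 10 were called higher and 2 lower, beside 9.04% and 7.10% of all genes tested. The median was 0.59 on the log2 scale. The genes called higher were led by Pdlim3 (3.89), Tpm2 (3.38), Des (2.74) and Ldb3 (2.73), which encode Z-disc and filament proteins that skeletal muscle also makes. Tpm2, a tropomyosin, had 138, 24.9 and 25.3 in WT and 531, 264 and 1163 in sST2-KO (SE 0.86, adjusted p = 0.0339 by edgeR's quasi-likelihood test). Des, the muscle intermediate filament desmin, had 208, 62.3 and 134 in WT and 772, 289 and 1635 in sST2-KO (SE 0.69, adjusted p = 0.0335). In both, sST2-KO replicate 3 was the highest, as it was for the summed markers of skeletal muscle.

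The skeletal muscle markers summed to 1557, 106 and 41.9 normalized CPM in WT and to 7624, 4124 and 17763 in sST2-KO. Of 19 listed, 18 were tested, and 4 were called higher and 0 lower, beside 9.04% and 7.10% of all genes tested. In 16 the sST2-KO libraries all lay above WT, which 21.8% of all genes tested showed. The median log2 fold change of the list was 4.09, and 9.17 without WT replicate 1. The most abundant, Acta1, held 4162, 60 and 6 counts in WT and 26017, 8784 and 39556 in sST2-KO. Ckm, Myh4, Myh7, Pvalb and Myoz1 had 0 counts in WT replicate 3, Myh2 had 0 in WT replicates 2 and 3, and Myod1, which was not tested, had 0 in all WT libraries. The part of skeletal muscle RNA in the contractile calls was not tested.

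The contractile genes called lower were Rbpms2 and Myl9, named after their values were seen since the rule of 4 per list gave only genes called higher. Myl9 encodes the regulatory light chain that Mylk phosphorylates. It fell from 26.4, 34.8 and 34.9 in WT to 9.76, 16.4 and 11.4 in sST2-KO. All sST2-KO libraries were below WT, by a fitted 2.57-fold (log2 fold change -1.36, SE 0.25, adjusted p = 0.0168 by edgeR's quasi-likelihood test), and the adjusted p was 0.0532 without WT replicate 2 and 0.0739 without WT replicate 3. Rbpms2, an RNA-binding protein of smooth muscle, fell from 52.3, 42.7 and 65.6 to 19.1, 15.9 and 4.15 (log2 fold change -2.03, SE 0.50, adjusted p = 0.0312). Its adjusted p was between 0.0580 and 0.112 when any WT library or sST2-KO replicate 2 was left out.

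Other pericyte genes were mostly not called. Of 30 listed, 27 were tested, and 2 were called higher and 2 lower, beside 9.04% and 7.10% of all genes tested. The median was -0.097, or 0.14 with total counts as scale. Higd1b, a marker of capillary pericytes, fell from 10.1, 9.05 and 9.49 to 4.88, 4.27 and 3.16, a fitted 2.32-fold (log2 fold change -1.21, SE 0.27, adjusted p = 0.0246 by edgeR's quasi-likelihood test). Its libraries were tight within each group and lay apart, and its adjusted p was between 0.0510 and 0.0932 when any library but sST2-KO replicate 1 was left out, and 0.0543 with total counts as scale. Kcnk3, a potassium channel gene that brown adipocytes also express, fell from 390, 646 and 991 to 69.5, 140 and 22.2 (log2 fold change -3.13, SE 0.67, adjusted p = 0.0223).

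The pericyte genes called higher were Angpt1 and Mcam. Angpt1, the ligand by which mural cells stabilize endothelium through the receptor Tek, rose from 7.56, 6.69 and 2.96 to 27.7, 22.2 and 12.5 (log2 fold change 1.85, SE 0.43, adjusted p = 0.0269 by edgeR's quasi-likelihood test). Mcam, an adhesion molecule of mural and endothelial cells, rose from 115, 125 and 79.0 to 194, 411 and 188 (log2 fold change 1.31, SE 0.36, adjusted p = 0.0421). In each, every sST2-KO library was above every WT library.

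**Figure D4:**
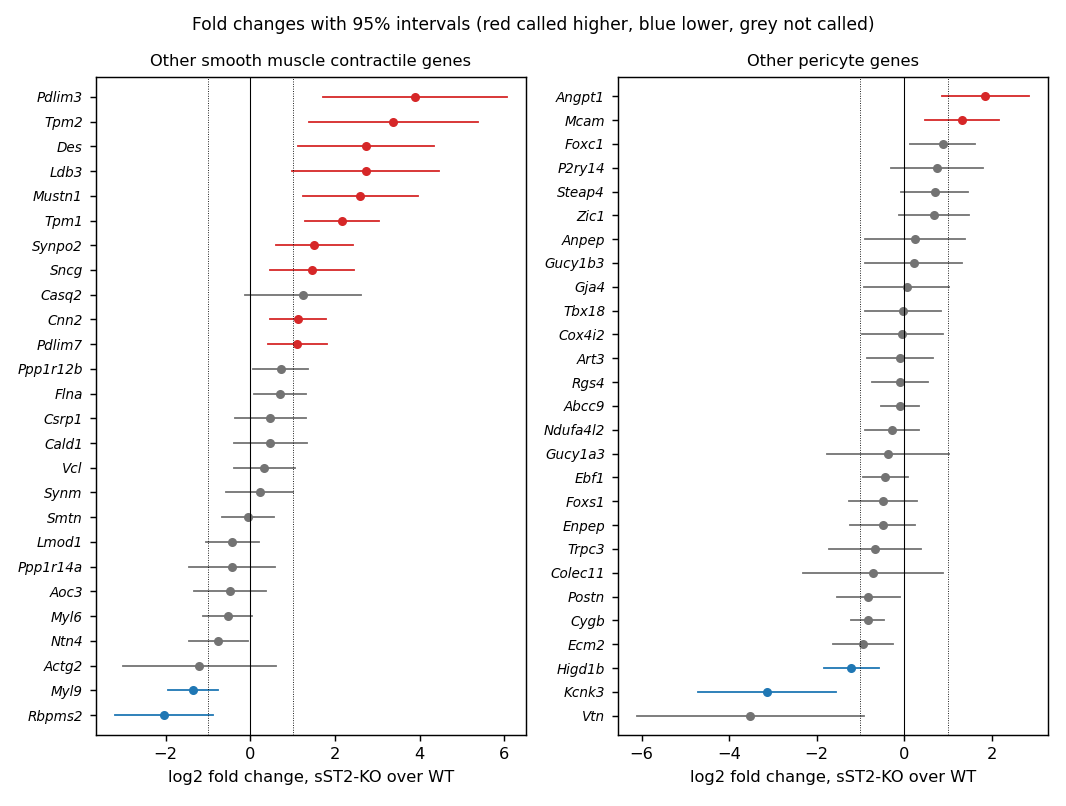
Log2 fold changes of sST2-KO over WT with 95% intervals for the tested genes of 2 lists, other smooth muscle contractile genes (26, left) and other pericyte genes (27, right), each ordered by fold change, with red called higher, blue called lower and grey not called. The contractile panel holds 10 red and 2 blue genes and the pericyte panel 2 of each.

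The ligands that act on mural receptors were measured next. Pdgfb, the endothelial ligand of Pdgfrb, had 86.9, 81.3 and 84.9 in WT and 52.3, 76.2 and 42.3 in sST2-KO. All sST2-KO libraries were below WT, replicate 2 by little, with a log2 fold change of -0.57 (SE 0.24, adjusted p = 0.127 by edgeR's quasi-likelihood test), and without sST2-KO replicate 2 it was -0.86 (adjusted p = 0.0451). Pdgfa, the ligand that signals through Pdgfra, rose from 6.72, 10.6 and 8.26 to 20.7, 24.2 and 23.2 (log2 fold change 1.41, SE 0.24, adjusted p = 0.0150). It was the only one of 5 PDGF ligands and receptors called, and the list had a median of 0.27, which was -0.078 without sST2-KO replicate 3, 0.045 without WT replicate 2 and 0.65 without WT replicate 1.

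In the Notch pathway, 1 of 20 genes was called higher and 0 lower, with a median of 0.17. The called gene was Rbpj, at 35.6, 24.5 and 21.5 in WT and 47.5, 55.2 and 91.1 in sST2-KO (log2 fold change 1.25, SE 0.31, adjusted p = 0.0317 by edgeR's quasi-likelihood test). Jag1, a ligand of Notch3, had 25.8, 12.5 and 12.0 in WT and 22.4, 16.5 and 16.3 in sST2-KO (log2 fold change 0.13, SE 0.34, adjusted p = 0.810), with overlapping groups. Heyl, a Notch target of mural cells named after its values were seen, had 32.6, 50.6 and 37.1 in WT and 20.0, 23.0 and 6.12 in sST2-KO. Its sST2-KO libraries were all below WT, with a log2 fold change of -1.29 (SE 0.45) and an adjusted p of 0.0814 by edgeR and 0.0260 by DESeq2.

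Of 16 genes for SRF, myocardin and related regulators, 12 were tested, 1 was called higher and 0 lower, with a median of 0.47. Mef2c, a factor of muscle and endothelium, rose by a log2 fold change of 1.63 (SE 0.45, adjusted p = 0.0433 by edgeR's quasi-likelihood test). Srf had 32.1, 96.9 and 40.1 in WT and 57.5, 112 and 65.3 in sST2-KO (log2 fold change 0.47, SE 0.45, adjusted p = 0.490), with replicate 2 high in each group. Myocd, the myocardin gene, did not pass the filter, at 21, 8 and 8 counts in WT and 11, 10 and 6 counts in sST2-KO, so it did not enter the test.

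Signals that constrict or relax vessels changed in single genes. Of 21 constrictor genes, 14 were tested, 2 were called higher and 0 lower (median -0.13, or 0.11 with total counts as scale and 0.014 without sST2-KO replicate 1). They were Edn1, the endothelin ligand (log2 fold change 1.34, SE 0.38, adjusted p = 0.0481 by edgeR's quasi-likelihood test), and Ece1, the enzyme that matures it (1.33, SE 0.21, adjusted p = 0.0141). Ece1 went from 105, 131 and 97.4 to 245, 312 and 278. Edn1 went from 9.05, 6.03 and 10.1 to 14.8, 15.4 and 33.3, with sST2-KO replicate 3 well above the rest, and its log2 fold change was 0.85 (adjusted p = 0.116) without that library. With RLE factors its adjusted p was 0.0504.

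Of 18 genes for nitric oxide, cGMP and relaxation, 17 were tested, 2 were called higher and 3 lower (median 0.062, or -0.041, -0.079 and -0.12 without WT replicate 3, sST2-KO replicate 1 and sST2-KO replicate 2). Adm, the vasodilator adrenomedullin, rose from 18.9, 15.6 and 16.5 to 36.3, 38.2 and 48.5 (log2 fold change 1.27, SE 0.19, adjusted p = 0.0136 by edgeR's quasi-likelihood test). Ramp1, a coreceptor of the vasodilator CGRP, rose by a log2 fold change of 2.17 (SE 0.48, adjusted p = 0.0238) from 0.370 to 1.31 CPM in WT to 3.44 to 5.63 in sST2-KO. Npr3, the clearance receptor of natriuretic peptides, fell from 65.1, 146 and 86.8 to 31.9, 30.1 and 26.3 (log2 fold change -1.76, SE 0.31, adjusted p = 0.0154). Pde3a, a phosphodiesterase of vascular muscle and other cells, fell by a log2 value of 1.75 (adjusted p = 0.0203). Of 22 genes for calcium and RhoA control of contraction, 17 were tested, and Itpr2, a calcium release channel, was the only one called (log2 fold change -1.35, SE 0.33, adjusted p = 0.0301), with a list median of 0.24.

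Marker lists of other cells in the tissue were set beside the mural genes. Endothelial markers, the cells that mural cells cover, summed to 2273, 2853 and 2874 normalized CPM in WT and 2453, 3499 and 2071 in sST2-KO, which overlapped, with 1 of 15 called higher, 1 lower and a median of 0.028, or -0.093 without WT replicate 1 and -0.23 without sST2-KO replicate 2. The sum of the 10 mural genes over the endothelial sum was 0.387, 0.304 and 0.278 in WT and 0.235, 0.200 and 0.186 in sST2-KO. This ratio was lower in every sST2-KO library, and without Rgs5 it was 0.183, 0.185 and 0.151 in WT and 0.133, 0.132 and 0.128 in sST2-KO, still without overlap. The ratio was chosen after the values were seen and is given without a test.

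Lists for other cells moved in both directions, beside 9.04% of all genes tested called higher and 7.10% called lower. Brown adipocyte markers summed to 8432, 10368 and 15663 in WT and 602, 1967 and 373 in sST2-KO, with 7 of 10 called lower and a median of -2.96. Markers of all adipocytes had 2 of 8 called lower (median -0.92), and Schwann cell markers 3 of 8 tested (median -1.10). Macrophage markers summed to 1105, 1015 and 812 in WT and 1629, 1533 and 6507 in sST2-KO, with 3 of 10 called higher and a median of 1.60, or 0.83 without sST2-KO replicate 3. Fibroblast markers (0 of 14 called, median -0.44) summed to 8621, 3724 and 4291 in WT and 2462, 4046 and 11306 in sST2-KO, and myofibroblast markers (0 of 10 called, median 0.17) to 528, 380 and 351 in WT and 290, 428 and 858 in sST2-KO. The fibroblast median was -0.084 without WT replicate 1 and -1.11 without sST2-KO replicate 3, and the myofibroblast median was 0.71 and -0.73 without these libraries. The macrophage, fibroblast and skeletal muscle sums were highest in sST2-KO replicate 3, the library in which 7 of the 10 mural genes were lowest within their group. The part of these lists in the mural values was not tested.

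**Figure D5:**
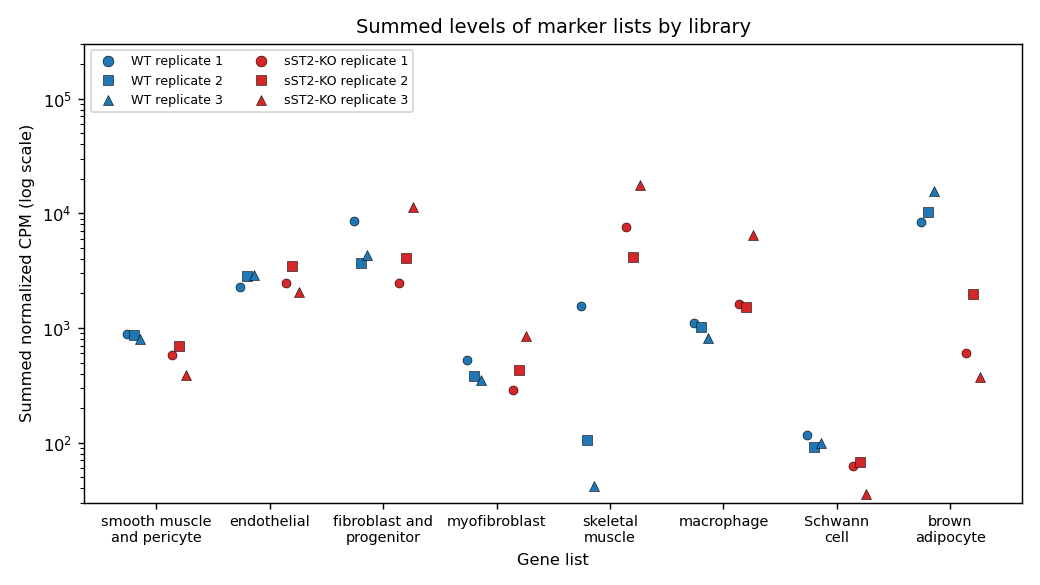
Summed normalized CPM (log axis) of the 10 smooth muscle and pericyte genes and of 7 marker lists in each library, with blue for WT, red for sST2-KO and a symbol for each replicate. The mural sums lie lower in sST2-KO (385 to 698) than in WT (800.1 to 881), the endothelial sums overlap, and the skeletal muscle and brown adipocyte sums lie far apart.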

How the data were processed

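RNA-seq of poly-A-selected, paired-end libraries was made from BAT of 3 sST2-KO and 3 WT mice. The authors checked reads with FastQC 0.12.1, aligned them with HISAT2 2.2.1 to mm39 (versions from the submitters' processing notes) and used htseq-count to count reads on genes. Raw counts per gene symbol were deposited. The version and the strand setting of htseq-count are not given in the sources used here. Libraries were assigned to groups by the sample titles, and the table held 0 further columns of samples. In 27 rows the symbol had been turned into a date.

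The analysis ran in R 4.3.3 and edgeR 4.0.16, with filterByExpr on the groups, TMM factors (0.825 to 1.14) and the quasi-likelihood test of sST2-KO against WT, fitted with no covariate. P-values were adjusted (Benjamini-Hochberg) over the 14542 genes tested. This replaced DESeq2, which the study's methods name and which was run as an alternative. Normalized CPM were computed from the counts and the TMM factors, and the SE was derived from the log2 fold change and the F value. Intervals cover 95% and are not adjusted for the number of genes. The common biological coefficient of variation was 0.325. Levels per kb used exon lengths of the GRCm39 annotation. A test on single values with 3 against 3 mice cannot give a two-sided exact permutation p below 0.1, so none was run. The fits were tested on simulated data. Over the 6 pairs of libraries within a group, chi-square per degree of freedom was 27.2 to 75.6, above sampling noise.

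The 10 genes, the gene lists and the tests were chosen with earlier results of these data known. The text names the 10 genes, all listed relatives, Abcc9, Pdgfb, Jag1, Myocd and Srf, up to 4 called genes with the largest absolute log2 fold change of each other pathway list, and of the marker lists the counts and sums with up to 2 of the most abundant genes. Other genes named were chosen after their values were seen. As alternatives, total counts or RLE factors replaced TMM, the filter was dropped or set to at least 10 counts in every library, DESeq2 1.42.0 or robust estimation was used, the minimum was set to 1.5-fold, the replicate number was added as a block, and each library was left out in turn. Chosen after seeing the data were a fit on WT replicates 1 and 3 with sST2-KO replicates 1 and 2, and TMM without the 50 most abundant genes. Python 3.11.15 with matplotlib 3.10.9 drew the figures.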

Additional observations from a re-analysis of the deposited data

How the results depend on the processing

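No member was called higher under any alternative. The number of members called lower was 0 except for 1 by DESeq2 and 0 to 3 when a library was left out, and the number with an adjusted p under 0.05 was 0 except for 2 by DESeq2 and 0 to 3 when a library was left out, each 3 without sST2-KO replicate 2. Over all genes, the calls higher and lower ranged from 36 to 1383 and from 22 to 998 when a library was left out, and were 36 and 22 without WT replicate 3, 391 and 480 without WT replicate 2, and 683 and 641 without sST2-KO replicate 3. Calls numbered 443 and 462 with only WT replicates 1 and 3 and sST2-KO replicates 1 and 2. With total counts the share of calls that were higher was 72.7%, against 56.0% with TMM, and the median of all genes was 0.29 against 0.034. The cause of these shifts was not tested. Besides the values without 1 library given in the report, medians of the lists turned direction with total counts for other pericyte genes (0.14) and constrictor genes (0.11), with the replicate block for myofibroblast markers (-0.096), and with the 4 libraries for PDGF genes (-0.0021), relaxation genes (-0.050) and myofibroblast markers (-0.64), while the fibroblast median was -1.39 with the 4 libraries.

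The fit with the replicate number as a block called 0 genes higher and 0 lower, with 4623 genes at an unadjusted p under 0.05, and DESeq2 without a block called 1676 and 1318. Deviations from the group means correlated at -0.066, 0.22 and -0.32 for replicate numbers 1, 2 and 3. The labels do not say whether these numbers pair the mice, and the correlations have no reference, so they cannot decide it.

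The log2 fold change turned direction with total counts for Mylk (0.14), Pdgfrb (0.088), Abcc9 (0.16), Rgs4 (0.14), Myh10 (0.092) and Myh14 (0.13), and with the 4 libraries for Mylk (0.066), Pdgfrb (0.089), Pdgfra (-0.70) and Csf1r (-0.16). With a library left out, values that turned at least once ranged from -0.28 to 0.11 for Mylk, from -0.30 to 0.022 for Pdgfrb and from -0.39 to 0.60 for Cspg4. The ranges were from -0.19 to 0.057 for Abcc9, from -0.33 to 0.088 for Rgs4, from -0.48 to 0.65 for Pdgfra, from -0.069 to 0.25 for Notch1, from -0.064 to 0.58 for Jag1, from -0.35 to 0.063 for Myh14, from -0.0016 to 0.54 for Cnn3 and from -0.15 to 1.41 for Csf1r. The other 7 members kept a negative sign under every alternative run. Cnn1 could not be fitted with at least 10 counts in every library. The adjusted p of members over the alternatives ranged from 0.0201 to 0.250 for Cnn1, from 0.0187 to 0.168 for Rgs5, from 0.0480 to 0.395 for Acta2 and from 0.0378 to 0.266 for Myh11. Cnn1 had the lowest counts of the 10 genes, at 7 to 68 a library, and the part of depth in its result was not tested.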
